A study of Mus musculus with 51 samples.

Results

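The genes described here are 10 genes by which macrophages are commonly recognised in tissue RNA: Csf1r, Cd14, Tyrobp, Fcer1g, C1qa, C1qb, C1qc, Lyz2, Cd68 and Arg1. They were taken as a list. Every probe set whose single gene symbol is one of the 10 was used, which gave 14 of 22626 probe sets and 10 of 12393 named genes on each of 51 arrays. Csf1r and C1qb have 3 probe sets each and the other genes 1. The arrays measured total RNA of whole ventral prostate of FVB mice aged 8 to 10 weeks. FVB-AKT1 transgenic mice received RAD001 (everolimus, an inhibitor of mTOR, a kinase downstream of AKT1) for 12 h (5 arrays), 48 h (4 arrays), 6 d (3 arrays), 9 d (4 arrays) or 15 d (6 arrays). Transgenic mice on placebo were taken at the same times, with 4 arrays of 12 h, 5 of 48 h, 1 each of 6 d and 9 d, and 7 of 15 d. Wild type placebo mice had 4 arrays of 12 h, 4 of 48 h and 3 of 15 d, and no wild type mouse on RAD001 was analysed here. The labels do not state the dose of RAD001, the promoter of the transgene or whether each array holds 1 mouse.

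Tissue macrophages depend on CSF1 receptor signalling, sense microbial products through CD14 and TLR4, and engulf debris that is tagged by antibody or complement. C1q, the recognition part of the classical complement pathway, is assembled from A, B and C chains and is made largely by macrophages rather than by the liver. Arginase 1 turns arginine into ornithine and urea. It is abundant in liver and marks alternatively activated mouse macrophages, although other cells can express it too.

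C1qb (chr4:136880126-136886200), C1qc (chr4:136889801-136892936) and C1qa (chr4:136895916-136898844) lie close together in the RefSeq annotation of GRCm38.p6. The other genes lie elsewhere in the genome. The 250 bases before the transcript start, from the RefSeq table of GRCm38.p6, are shown for C1qb and C1qc, which deviated together among arrays of the same group, and for Lyz2, which deviated with C1qc when zeros were missing. All 3 are read from the minus strand, at chr4:136886201-136886450, chr4:136892915-136893164 and chr10:117282273-117282522. The C1qc window overlaps the gene span given above, so its positions count from a transcript start inside that span. Capitals mark GAGGAA, a core of sites for the myeloid ETS factor PU.1, or its reverse complement TTCCTC.
C1qb: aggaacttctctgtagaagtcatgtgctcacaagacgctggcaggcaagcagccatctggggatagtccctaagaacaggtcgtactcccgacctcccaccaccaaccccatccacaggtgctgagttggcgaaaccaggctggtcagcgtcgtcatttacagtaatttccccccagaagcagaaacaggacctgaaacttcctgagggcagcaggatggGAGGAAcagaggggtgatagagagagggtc
C1qc: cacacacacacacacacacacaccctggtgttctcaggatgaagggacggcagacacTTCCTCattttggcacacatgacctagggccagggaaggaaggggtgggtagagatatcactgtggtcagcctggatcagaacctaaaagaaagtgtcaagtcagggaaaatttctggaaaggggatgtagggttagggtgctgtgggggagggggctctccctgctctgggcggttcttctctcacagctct
Lyz2: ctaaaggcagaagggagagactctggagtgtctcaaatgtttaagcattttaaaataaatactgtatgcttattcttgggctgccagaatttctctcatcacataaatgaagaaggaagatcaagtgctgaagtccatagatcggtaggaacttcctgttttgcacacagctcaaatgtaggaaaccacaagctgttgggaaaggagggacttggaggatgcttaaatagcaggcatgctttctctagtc
C1qb holds the motif as GAGGAA, with its first base at position -30 from the start, and C1qc holds it as TTCCTC at position -193. The Lyz2 window holds neither form. Windows of 5 of the 10 genes were searched, those of Fcer1g, C1qb, C1qc, Lyz2 and Cd68. Of these 5 windows 3 held the motif on either strand (Cd68 at position -225), against 23.3% of all 32851 windows of this length. No window was searched for Csf1r, Cd14, C1qa, Tyrobp or Arg1, so the count does not describe the 10 genes as a set. A match of letters does not show a bound site.

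Values are linear intensities of probe sets as the authors deposited them, and changes are log2 differences with their standard error (SE). The changes come from limma fits over all features of a table, with values under 16 set to 16 and a Benjamini-Hochberg adjusted p under 0.05 as the threshold for a call. Arrays of a group are biological replicates per the labels, so p-values reflect the spread among them, pooled over the groups of a table. The arrays of 12 h, 48 h and 15 d form 1 table of 42 arrays and those of 6 d and 9 d a separate table of 9, so levels are not compared between the tables. Of the 10 genes 9 were bright enough to be tested in both tables. Cd68 was not, since its mean lay at the 38th percentile of probe sets in the larger table. The other 9 genes lay between the 57.7th percentile (Tyrobp) and the 90.7th (Csf1r). These are ranks among probe sets, and no detection calls were used. The transgene was checked through Akt1, whose brighter probe set differed by 0.17 ± 0.08 between genotypes (adjusted p = 0.0932) and whose other set rose by 0.88 ± 0.23 in transgenic placebo glands (adjusted p = 0.00289). The labels do not state whether either set reads the transgene. In whole tissue, fewer cells of a type and less RNA per cell cannot be told apart.

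Exact zeros and a pair of array sets touch several of these values. Among 8365 features of the larger table with a median intensity above 100, 2320 values were listed at exactly 0 while 25 lay between 0 and 16. Arg1 was at 0 on 3 arrays and Csf1r, Lyz2, Tyrobp, C1qb and C1qc on 1 each. The next lowest values of these genes were 52.1 (Arg1), 326 (Csf1r), 278 (Lyz2), 89.7 (Tyrobp), 99.6 (C1qb) and 90.1 (C1qc). Results are therefore given with zeros set to 16, like all low values, and again with zeros treated as missing, a setting chosen after seeing the data. At 15 d the arrays also fell into sets along the first principal component. Set B holds transgenic placebo replicates 4, 6, 8, 9 and 10 and RAD001 replicates 3, 4, 6 and 7. Set A holds the other arrays, all wild type ones included, so at 15 d genotype and array set are partly confounded. The labels do not state what the sets are. Transgenic placebo replicates 8 and 9 of 15 d also had over 500 values at 0 each, as did RAD001 replicate 1 of 6 d and replicate 3 of 9 d.

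Of the 9 genes tested, Arg1 rose and Fcer1g fell in transgenic placebo glands against wild type glands averaged over 12 h, 48 h and 15 d, a comparison in which 33.5% of all features were called (14.2% higher and 19.2% lower). Their median change was -0.10, against -0.05 over all features. At single times Fcer1g alone passed, at 12 h (20.6% of all features called) and at 15 d (19.9%), and none of the 9 passed at 48 h (26.6%). With zeros as missing Arg1 rose at each of the 3 times, where 26.2%, 32.6% and 25.7% of all features were called at 12 h, 48 h and 15 d, and C1qc and Cd14 fell at 48 h. RAD001 against placebo in transgenic glands gave no call among the 9 genes at 12 h (1.48% of all features called) or 48 h (3.54%). At 15 d C1qa rose (5.78%, of which 2.51% higher) and at 6 d and 9 d Arg1 fell (0.888%, of which 0.556% lower). When zeros were missing Arg1 also fell at 48 h (5.21%, of which 2.33% lower) and at 15 d (7.44%, of which 4.41% lower). Averaged over times, the 2 of 9 genes called between genotypes were a smaller share than the 33.5% of all features.

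**Figure D1:**
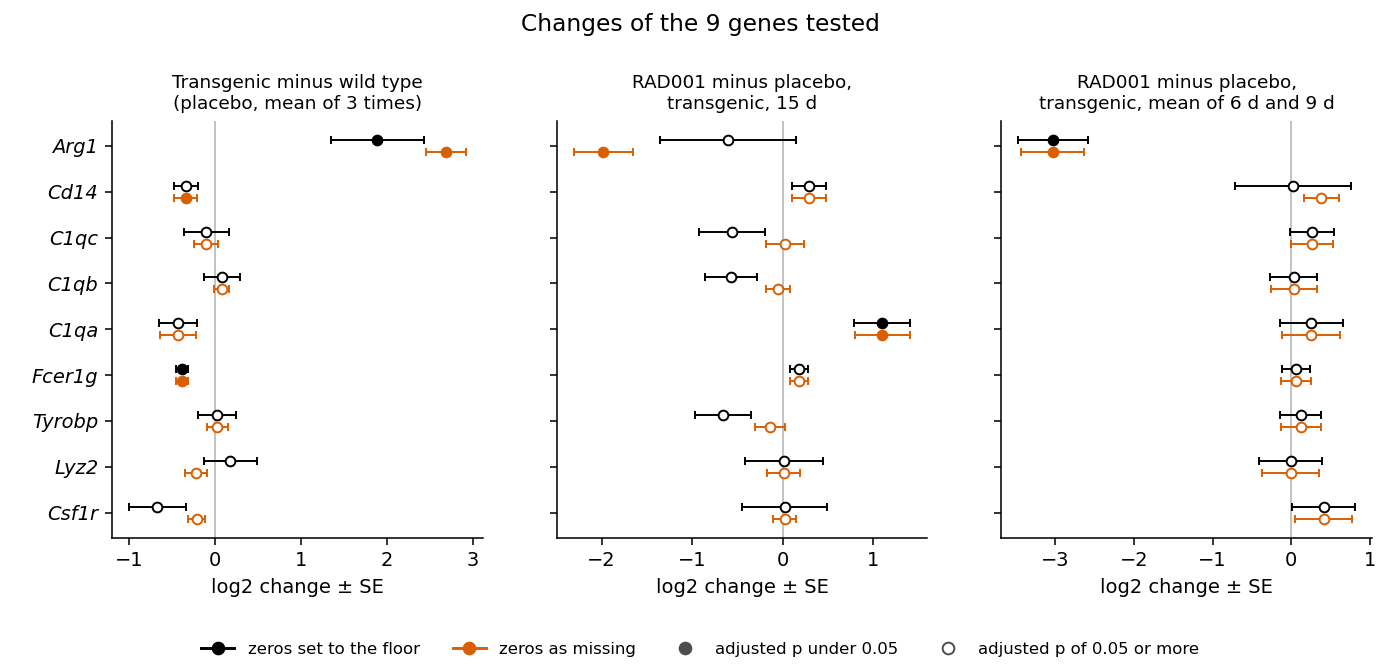
Change of each of the 9 genes tested (log2 change ± SE, horizontal axis) between transgenic and wild type placebo glands averaged over times, and between RAD001 and placebo in transgenic glands at 15 d and at 6 d and 9 d. Black points have zeros set to the floor of 16, orange points have zeros as missing, and filled points have an adjusted p under 0.05. Arg1 lies at 1.89 and 2.69 in the first panel and at -3.03 in the last, while most other genes lie within 1 log2 unit of 0.

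Arg1 had the largest genotype difference of the 9 genes. In transgenic placebo arrays Arg1 had intensities of 172, 365, 473 and 428 at 12 h, against 70.9, 61.9, 64.2 and 79.4 in wild type arrays. At 48 h transgenic placebo arrays had 471, 637, 844, 0 and 417, against 72.2, 84.5, 62.8 and 77.8 in wild type arrays. At 15 d transgenic placebo arrays ran from 0, on 2 of 7 arrays, to 774 with a median of 378, and the wild type arrays had 52.5, 63.8 and 76.5. Every transgenic placebo value above 0 was higher than every wild type value, and the 3 zeros were lower than all of them. Non-overlap toward higher values in transgenic arrays was found in 13.6% of all features at 12 h, the time at which Arg1 has no zero. Wild type arrays stayed between 52.5 and 84.5 at all 3 times.

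With zeros at 16, Arg1 rose by 1.89 ± 0.54 in transgenic glands averaged over the 3 times (3.7-fold, adjusted p = 0.00619, limma). Without the zeros it rose by 2.69 ± 0.23 (6.46-fold, adjusted p = 7.67e-12). That value lay between 2.63 and 2.80 whichever of the 27 placebo arrays was left out, and the call held in all 27 fits. At single times the zeros decided the call. With zeros at 16 the differences of Arg1 were 2.29 ± 0.96 at 12 h, 1.92 ± 0.91 at 48 h and 1.46 ± 0.94 at 15 d (adjusted p = 0.0885, 0.12 and 0.268). Without the zeros Arg1 rose by 2.29 ± 0.39, 2.95 ± 0.39 and 2.84 ± 0.40 (adjusted p = 3.07e-05, 6.61e-07 and 6.64e-06). A change of the genotype difference of Arg1 between times did not pass (adjusted p = 0.883, and 0.555 with zeros as missing).

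**Figure D2:**
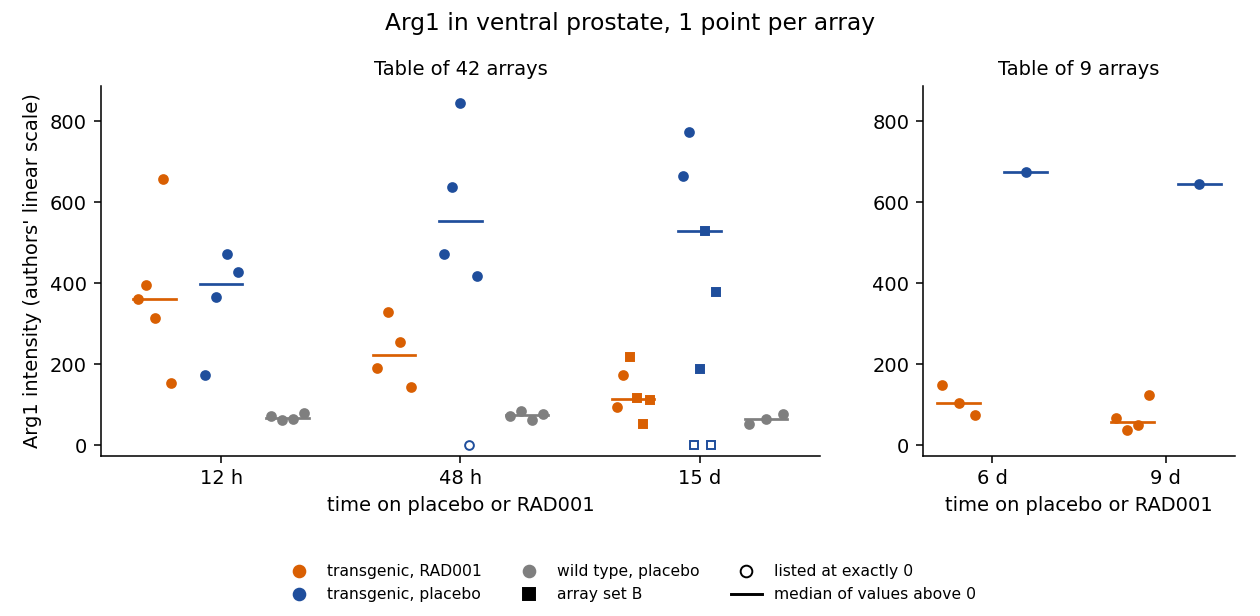
Arg1 intensity (authors' linear scale) of each array, by time on RAD001 or placebo, for transgenic mice on RAD001, transgenic mice on placebo and wild type mice on placebo. Open symbols are arrays listed at exactly 0, squares are arrays of set B and lines are medians of the values above 0. Wild type values lie from 52.5 to 84.5, placebo transgenic values above 0 from 172 to 844, and RAD001 values from 152 to 657 at 12 h and from 52.1 to 218 at 15 d.

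Arg1 was lower with RAD001 than with placebo at 6 d and 9 d and, among arrays above 0, at 48 h and 15 d. At 12 h RAD001 arrays had 359.9, 395, 313, 657 and 152, a span that covers all 4 placebo values. The difference at 12 h was 0.01 ± 0.91 (adjusted p = 0.999), or 0.01 ± 0.37 with zeros as missing. At 48 h RAD001 arrays had 191, 327, 254 and 142, below the 4 placebo values above 0 and above the placebo zero. Without zeros 3.32% of all features did not overlap in this direction. At 15 d the 6 RAD001 arrays ran from 52.1 to 218 with a median of 113, and of the 5 placebo values above 0 only that of replicate 6 (188) fell in this range. With zeros at 16 neither difference was called (-0.35 ± 0.91 at 48 h, adjusted p = 0.955, and -0.60 ± 0.75 at 15 d, adjusted p = 0.717). When zeros were missing Arg1 fell by 1.39 ± 0.39 at 48 h (adjusted p = 0.029) and fell by 1.98 ± 0.33 at 15 d (3.94-fold lower, adjusted p = 0.000133).

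The 15 d call of Arg1 with zeros as missing held in all 13 fits that left out 1 array, while that of 48 h held in 5 of 9 and reached an adjusted p of 0.124 without RAD001 replicate 5. Within array set A at 15 d Arg1 fell by 2.49 ± 0.45 (2 RAD001 and 2 placebo arrays, adjusted p = 0.00418). Within set B it fell by 1.61 ± 0.41 (4 RAD001 arrays and 3 placebo arrays above 0, adjusted p = 0.0151). Both fits took the spread from the 12 h and 48 h arrays as well, not from these arrays alone. In the table of 6 d and 9 d, where Arg1 has no zeros, RAD001 arrays had 149, 105 and 73.4 at 6 d and 67, 37.2, 49 and 124 at 9 d, against 674 and 645 in the single placebo arrays of 6 d and 9 d. All 7 RAD001 values were below both placebo values, as in 7.63% of all features. Arg1 fell by 3.03 ± 0.44 averaged over the 2 days (8.17-fold lower, adjusted p = 0.0236). With 1 placebo array a day this call was lost without RAD001 replicate 3 of 6 d or replicate 1 of 9 d (adjusted p = 0.0553 and 0.0584). It was also lost with no filter on dim probe sets (adjusted p = 0.0707) and within 6 d (-2.69, adjusted p = 0.335) or 9 d (-3.37, adjusted p = 0.131) alone.

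In order of level, the geometric means of Arg1 in the larger table over arrays above 0 were 569.9 in transgenic placebo glands at 48 h and 454 at 15 d, followed by 339 in RAD001 glands and 336 in placebo glands at 12 h. RAD001 glands had 218 at 48 h and 115 at 15 d, and the 3 wild type groups had 63.5 to 73.9. The SD on the log2 scale was 0.46 to 0.81 in the transgenic groups and 0.16 to 0.27 in the wild type groups. From placebo glands at 48 h down to placebo glands at 12 h, each group differed from the next in this order by less than these SDs. The same held among the wild type groups. Against wild type, RAD001 glands were higher in Arg1 by 2.30 ± 0.37 at 12 h and 1.56 ± 0.39 at 48 h with zeros as missing (adjusted p = 1.94e-05 and 0.00518, with 21.9% and 17.9% of all features called). At 15 d the difference of 0.86 ± 0.39 did not pass (adjusted p = 0.172, with 3.48% called), and with zeros at 16 none of the 3 passed. A change of the RAD001 effect on Arg1 between 12 h, 48 h and 15 d was not called (adjusted p = 0.96, and 0.0778 with zeros as missing).

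The genes of the C1q chains did not all move together between groups. C1qa was higher with RAD001 at 15 d, where RAD001 arrays had 240, 227, 236, 579.8, 245 and 342, and placebo arrays ran from 46.5 to 301 with a median of 143. Of the 7 placebo values 6 lay below every RAD001 value, and that of replicate 6 lay among them. C1qa rose by 1.10 ± 0.31 (2.15-fold, adjusted p = 0.0265), and by 1.10 ± 0.30 with zeros as missing (adjusted p = 0.0156). Its difference was 1.34 ± 0.38 within array set B (4 RAD001 and 5 placebo arrays, adjusted p = 0.0262) and 0.59 ± 0.44 within set A (2 RAD001 and 2 placebo arrays, adjusted p = 0.845). The spread in these 2 fits was estimated over arrays of other groups and times too. Without the placebo arrays with many zeros, replicates 8 and 9, C1qa differed by 0.80 (adjusted p = 0.143). Leaving out placebo replicate 9 (adjusted p = 0.0776) or 10 (0.0526), or RAD001 replicate 4 (0.0926) or 7 (0.0579), also ended the call. So did array weights (0.86, adjusted p = 0.161), a fit of only the groups compared (adjusted p = 0.149) and replicate number as a block (0.63, adjusted p = 0.393).

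At the other times C1qa was not called. Its RAD001 difference was -0.09 ± 0.37 at 12 h, 0.80 ± 0.37 at 48 h (adjusted p = 0.261) and 0.25 ± 0.40 at 6 d and 9 d. At 48 h RAD001 arrays had 316, 102, 199 and 137, and transgenic placebo arrays had 71.7, 68.2, 113, 144 and 118, with overlap. Between genotypes C1qa differed by -0.43 ± 0.22 averaged over times (adjusted p = 0.139). The largest of the single differences was -0.87 ± 0.37 at 48 h (adjusted p = 0.0808), where wild type arrays had 241, 270.1, 163 and 101.

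C1qb and C1qc, the genes of the other chains, were called in no genotype or RAD001 comparison with zeros at 16. At 15 d their RAD001 differences were -0.57 ± 0.29 and -0.56 ± 0.36, and that of the adaptor gene Tyrobp was -0.66 ± 0.31. All 3 genes were listed at 0 on RAD001 replicate 4 of 15 d, the array on which C1qa had its highest value. Without the zeros the differences were -0.05 ± 0.13 for C1qb, 0.03 ± 0.21 for C1qc and -0.14 ± 0.17 for Tyrobp. RAD001 arrays of 15 d had 106, 107, 148, 0, 147 and 196 for C1qb, and placebo arrays ran from 99.6 to 187 with a median of 149.9. For C1qc RAD001 arrays had 160, 158, 179, 0, 174 and 237, and placebo arrays ran from 134 to 280 with a median of 162. The groups overlapped for both genes.

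C1qc was lower in transgenic placebo glands at 48 h in the fit with zeros as missing. Transgenic placebo arrays had 95.4, 93.8, 137, 166 and 103, against 214, 239, 169 and 130.5 in wild type arrays, with overlap. The difference of C1qc was -0.66 ± 0.43 (adjusted p = 0.28) with zeros at 16 and -0.66 ± 0.24 (adjusted p = 0.0295) with zeros as missing, since the zero on a 15 d array enters the common estimate of the spread. With zeros as missing the call of C1qc held in 4 of 9 fits that left out 1 array, with an adjusted p of 0.12 without wild type replicate 2. C1qb has 2 further probe sets. Its 1437726_x_at set stayed at or under 36.7 on all arrays of set A and had 30.9, 0, 59.7 and 63.7 in RAD001 arrays of set B, and 52.7, 42.5, 98, 77.3 and 48.4 in the placebo arrays of set B. Apart from the zero and a value of 30.9, the arrays of set B were thus higher than all of set A. The third set, 1417063_at, differed by -0.93 ± 0.39 with RAD001 at 15 d (adjusted p = 0.178), with 2 of 6 RAD001 arrays at 0. Between genotypes at 15 d the 1437726_x_at set of C1qb rose by 1.20 ± 0.41 in transgenic placebo arrays in the fit of all probe sets without the filter (adjusted p = 0.0433, with 14.6% of probe sets called), where 5 of the 7 transgenic arrays and no wild type array belong to set B.

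**Figure D3:**
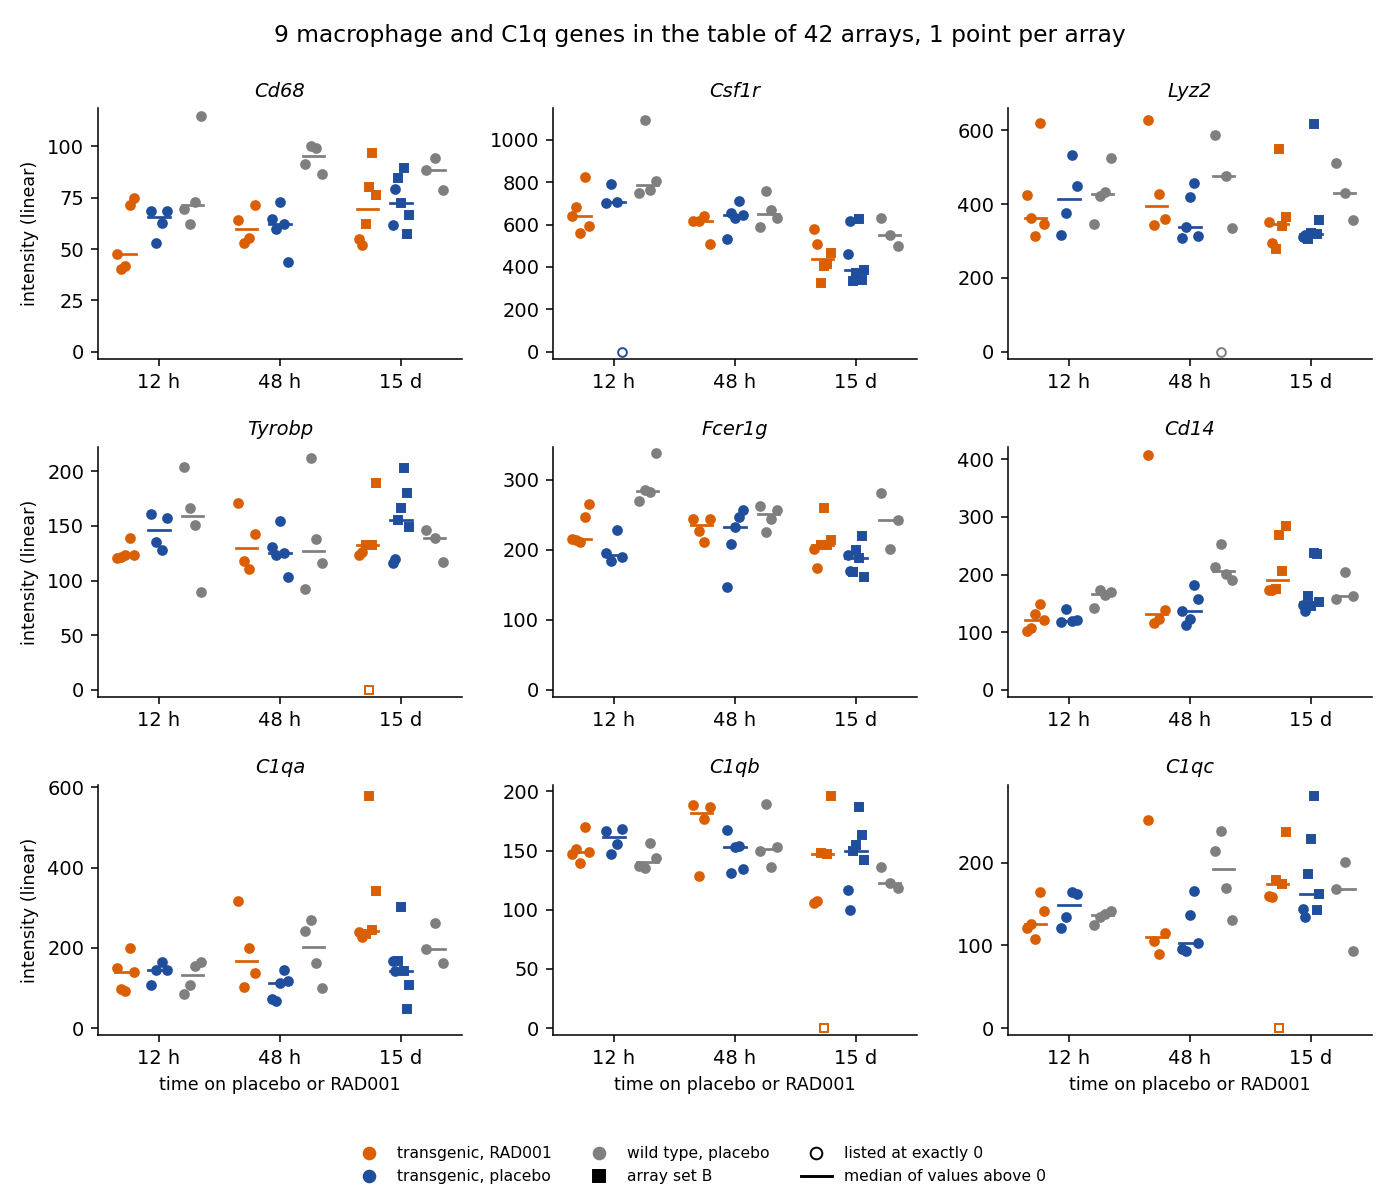
Intensity (authors' linear scale) of the other 9 genes on each of the 42 arrays of 12 h, 48 h and 15 d, 1 panel per gene, with groups, symbols and median lines as in the plot of Arg1. C1qa sits at 227 or above in all RAD001 arrays of 15 d and Fcer1g at 270.1 or above in all wild type arrays of 12 h, while most other groups of a gene overlap.

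Of the adaptor genes, Fcer1g was lower in transgenic glands. It encodes the gamma chain shared by activating Fc receptors, which is also found in mast cells and natural killer cells. At 12 h transgenic placebo arrays had 196, 184, 228 and 189.5, against 270.1, 285, 283 and 338 in wild type arrays, with no overlap (15.4% of all features did not overlap in this direction). At 48 h transgenic placebo arrays had 148, 209, 233, 247 and 256, against 263, 226, 244 and 257 in wild type arrays. At 15 d transgenic placebo arrays ran from 161 to 219.5 with a median of 189, against 281, 202 and 242 in wild type arrays. The 48 h and 15 d groups overlapped. Fcer1g fell by 0.38 ± 0.07 averaged over times (adjusted p = 0.000121), by 0.56 ± 0.13 at 12 h (adjusted p = 0.00219) and by 0.38 ± 0.13 at 15 d (adjusted p = 0.0363). Without the zeros, the averaged call held in all 27 fits that left out 1 array. That of 15 d held in 6 of 10, with an adjusted p of 0.25 without wild type replicate 1. With zeros at 16 the 15 d call of Fcer1g was lost with array set as a block (-0.47, adjusted p = 0.0583), without set B (adjusted p = 0.241), with median scaling (0.0837) and with only the groups compared (0.123). At 48 h the difference of -0.20 ± 0.13 did not pass (adjusted p = 0.244).

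RAD001 glands had Fcer1g values of 216, 214, 211, 247 and 266 at 12 h, all below the wild type arrays of that time (9.97% of all features did not overlap in this direction). Against wild type Fcer1g fell by 0.35 ± 0.13 (adjusted p = 0.0497, with 17% of all features called), a call lost in 8 of 9 fits without 1 array. Against placebo the RAD001 differences of Fcer1g were 0.21 ± 0.13 at 12 h, 0.11 ± 0.13 at 48 h, 0.18 ± 0.10 at 15 d and 0.06 ± 0.18 at 6 d and 9 d, and none passed. Tyrobp, the adaptor known as DAP12 that pairs with TREM2 and other myeloid receptors, gave 0.03 ± 0.22 between genotypes (adjusted p = 0.921). With zeros as missing the differences of Tyrobp between genotypes or treatments lay between -0.23 and 0.20, all uncalled.

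Of the surface receptors, Cd14, the co-receptor for lipopolysaccharide, was close to the threshold between genotypes. Transgenic placebo arrays had 118, 140.2, 119 and 121 at 12 h, against 141, 173, 164 and 169 in wild type arrays. At 48 h transgenic placebo arrays had 137, 112, 124, 181 and 157, against 212, 253, 201 and 191 in wild type arrays. The groups did not overlap at either time, and at 15 d they did. Non-overlap toward lower values was found in 15.4% of all features at 12 h and in 14.8% at 48 h. Averaged over times the difference of Cd14 was -0.34 ± 0.14 (adjusted p = 0.0554), which became a call with zeros as missing (adjusted p = 0.0392, with 40.5% of all features called). At 48 h it was -0.61 ± 0.23 (adjusted p = 0.051, and 0.0359 with zeros as missing). Cd14 has no zero on these 42 arrays, so its own values are the same in both fits. Only the variance shared over features and the adjustment over all features differ between them. With zeros as missing the averaged call of Cd14 held in 15 of 27 fits that left out 1 array and that of 48 h in 3 of 9 (adjusted p up to 0.0884 and 0.113). No RAD001 difference of Cd14 passed, and that of 15 d was 0.29 ± 0.19. The largest value, 407 in RAD001 replicate 1 of 48 h, stood far from the 116, 123 and 139 of the other arrays of that group.

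Csf1r, the gene of the CSF1 receptor, gave different answers by probe set. The brightest, 1419872_at, had 703, 790.1, 706 and 0 in transgenic placebo arrays at 12 h, against 748, 1094.3, 762 and 807 in wild type arrays. Its averaged genotype difference was -0.67 ± 0.33 (adjusted p = 0.124), or -0.21 ± 0.10 with zeros as missing (adjusted p = 0.0924). The 1419873_s_at set of Csf1r had 424, 414, 427 and 270.4 in transgenic placebo arrays at 12 h, against 820.4, 932, 551 and 753 in wild type arrays, with no overlap (14.5% of probe sets did not overlap in this direction). With all probe sets tested apart it fell by 0.46 ± 0.10 averaged over times (adjusted p = 0.000817, with 33.5% of probe sets called). It fell by 0.99 ± 0.19 at 12 h (adjusted p = 0.000175, with 21% of probe sets called), while its differences of -0.17 ± 0.18 at 48 h and -0.21 ± 0.18 at 15 d did not pass, and this genotype effect differed between times (adjusted p = 0.029, with 21.3% called). RAD001 arrays of 12 h were also lower than wild type in this set (-0.71 ± 0.18, adjusted p = 0.00437, with 17.6% of probe sets called). In wild type arrays this set of Csf1r was lower at 48 h than at 12 h (-0.73 ± 0.19, adjusted p = 0.00701, with 16.4% called). The dim 1423593_a_at set stayed at or under 74.6 on all arrays of set A and reached 100.2 in set B. No RAD001 difference of a Csf1r probe set passed.

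Csf1r and C1qc also differed with time in transgenic placebo glands. When zeros were missing, 1419872_at of Csf1r was lower at 15 d than at 12 h and 48 h (-0.65 ± 0.13, adjusted p = 4.41e-05), where 61.8% of all features were called and most 15 d arrays belong to set B. With the 12 h zero at 16 its sign turned (0.04 ± 0.42, adjusted p = 0.941). C1qc was higher at 15 d in this comparison with zeros as missing (0.45 ± 0.18, adjusted p = 0.029). With array set as a block as well, the difference of Csf1r was -0.34 (adjusted p = 0.068) and did not pass. Time and array set cannot be told apart for most of these arrays.

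Of the lysosomal genes, Lyz2, the lysozyme gene of myeloid cells, was called in no comparison of genotype or RAD001. Its averaged genotype difference was 0.18 ± 0.31 (adjusted p = 0.693), with wild type replicate 2 of 48 h at 0, and -0.22 ± 0.13 with zeros as missing (adjusted p = 0.181). Cd68, a lysosomal glycoprotein gene of macrophages, was tested only without the filter on dim probe sets. At 48 h transgenic placebo arrays had 64.5, 59.6, 73, 62.1 and 43.6 for Cd68, against 91.3, 100.1, 99.4 and 86.5 in wild type arrays, with no overlap (11.8% of features without the filter did not overlap in this direction). In that fit Cd68 fell by 0.41 ± 0.11 averaged over times (adjusted p = 0.00638, with 25.5% of features called) and by 0.66 ± 0.19 at 48 h (adjusted p = 0.0129, with 19.9% called). Under RAD001 the differences of Cd68 were -0.24 ± 0.19 at 12 h, 0.02 ± 0.19 at 48 h and -0.07 ± 0.16 at 15 d, none called.

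Other genes of these pathways changed in both directions between genotypes averaged over times, a comparison that called 33.5% of all features (14.2% higher and 19.2% lower). Of 25 further macrophage genes 16 were tested, and of these 3 rose and 1 fell in transgenic placebo glands. The lysosomal protease genes Lgmn (1.18 ± 0.13) and Ctsb (0.49 ± 0.07) and the scavenger receptor gene Marco (0.27 ± 0.08) rose, and Apoe, the gene of a lipid carrier that macrophages also make, fell by 1.11 ± 0.15. Lgmn and Ctsb are also expressed in epithelium. Among those too dim to test were Itgam, Mpeg1, Aif1, Trem2 and Cd163. Of 8 further complement genes Clu (0.62 ± 0.11) and Masp1 (0.41 ± 0.10) rose, and Serping1, the C1 inhibitor gene, and C3ar1, the C3a receptor gene, fell by 0.78 ± 0.13 and 0.27 ± 0.10. Of 10 ligands of CSF1R and of chemokine receptors Mif rose by 0.86 ± 0.12, and Cxcl12 (-0.38 ± 0.08), Cxcl14 (-0.44 ± 0.11) and Csf1 (-0.28 ± 0.11) fell. None of 9 genes of ITAM receptors and their kinases passed in this average. At 48 h, where 26.6% of all features were called, the Fc receptor gene Fcgr2b (0.79 ± 0.16) and Sirpa (0.45 ± 0.13) were higher. At 15 d (19.9% called) the phosphatase gene Ptpn6 was lower (-0.56 ± 0.20), with most transgenic and no wild type arrays of that time in set B. Of 9 genes of the TLR4 pathway Ly96 (0.56 ± 0.10) and Tlr4 (0.37 ± 0.08) rose and 3 fell, among them Nfkbia, the gene of an NF-kB inhibitor, by 0.34 ± 0.09.

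Beside Arg1, 9 genes of arginine and polyamine metabolism were tested between genotypes averaged over times, where 33.5% of all features were called. Arg2, the gene of the mitochondrial arginase, rose by 0.39 ± 0.10 and Sat1, a polyamine acetyltransferase gene, by 0.63 ± 0.11. Oat, which degrades ornithine, fell by 0.62 ± 0.11 and the spermidine synthase gene Srm fell by 0.31 ± 0.10. Of 7 genes of alternative macrophage activation Tgfb1 rose by 0.39 ± 0.09 and Retnla fell by 1.10 ± 0.18, the opposite sign to Arg1. The mannose receptor gene Mrc1 (-0.04) and Chil3 (-0.62) did not pass. With RAD001 at 15 d, where 5.78% of all features were called, 1 of the 9 arginine genes passed, the argininosuccinate lyase gene Asl (-0.41 ± 0.11). With RAD001 at 48 h (3.54% of all features called) Sat1 fell by 0.63 ± 0.18.

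Under RAD001 a few of the other pathway genes passed. Of all features 1.48% were called at 12 h, 3.54% at 48 h, 5.78% at 15 d and 0.888% at 6 d and 9 d. Apoe rose by 1.07 ± 0.25 at 48 h and by 1.04 ± 0.21 at 15 d, Serping1 rose by 0.86 ± 0.22 at 48 h, and Cxcl12 rose by 0.49 ± 0.11 at 15 d. Clu fell by 1.23 ± 0.15 at 15 d and fell by 1.21 ± 0.13 at 6 d and 9 d, Mif fell by 1.05 ± 0.20 at 48 h and fell by 0.83 ± 0.11 at 6 d and 9 d, and Ly96 fell by 0.51 ± 0.14 at 15 d. Tlr4 fell by 0.50 ± 0.13 at 12 h and fell by 0.52 ± 0.13 at 48 h. The genotype and RAD001 comparisons share the transgenic placebo arrays, so opposite signs in them are not independent.

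Markers of other cells moved with genotype and treatment, where 33.5% of all features were called between genotypes averaged over times and 5.78% with RAD001 at 15 d. Of 12 smooth muscle genes 9 fell and 0 rose in transgenic placebo glands (median -1.01), and their summed intensity ran from 5636 to 9463 there, against 10990 to 17071 in wild type arrays. Among 12 genes of fibroblasts and matrix 9 were lower and 0 higher past the threshold, and of 13 luminal epithelial genes 8 rose and 1 fell, and of 7 basal epithelial genes 4 fell. With RAD001 at 15 d 4 smooth muscle genes, 2 fibroblast genes and 2 basal epithelial genes rose and 1 luminal gene fell. Summed over the 9 genes described here, the intensity ran from 1630 to 3009 in transgenic placebo arrays and from 1832 to 2581 in wild type arrays. Among leukocyte lists between genotypes averaged over times, Lcp1 rose (0.32 ± 0.06) and Itgb2 and Ikzf1 fell (-0.64 ± 0.11 and -0.54 ± 0.20) of 10 genes shared by leukocytes, and the immunoglobulin gene Ighm rose (0.23 ± 0.08) of 4 B and plasma cell genes. Of the others 0 of 7 T and NK cell genes passed, 1 of 6 neutrophil genes (Mpo) and 2 of 5 mast cell genes (Gata2 and Hdc) fell, and 1 of 5 dendritic cell genes (Cd83) rose. At 48 h alone (26.6% of all features called) 5 of the 10 shared leukocyte genes were higher and 1 lower, and the mast cell protease genes Tpsb2 (0.61 ± 0.15) and Tpsab1 (0.55 ± 0.12) were higher, with none of the 5 mast cell genes lower. The mast cell genes had a summed intensity of 458 to 874 in transgenic placebo arrays and 551 to 1421 in wild type arrays. None of 5 seminal vesicle genes was bright enough to be tested. The part of these cell types in the changes of Arg1, C1qa and Fcer1g was not tested.

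The 9 genes tested form 36 pairs, and their deviations from the group means were correlated over the 42 arrays of 12 h, 48 h and 15 d. With zeros at 16, 4 pairs had a Pearson r with an adjusted p under 0.05 by permutation of arrays within groups, all positive, and the median r was 0.02. C1qb and C1qc gave r = 0.88 (permutation p = 3e-05, adjusted p = 0.00054) and Spearman's rho = 0.62 (permutation p = 0.00058, adjusted p = 0.007), with r = 0.60 without the 2 farthest arrays. Tyrobp gave r = 0.91 with C1qb and 0.85 with C1qc, and these were 0.65 and 0.53 without the 2 farthest arrays. The 3 genes share their zero on RAD001 replicate 4 of 15 d. Lyz2 and Fcer1g gave r = 0.29 (adjusted permutation p = 0.015), which Spearman's rho of 0.39 did not pass (adjusted permutation p = 0.068).

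With zeros as missing 11 of the 36 pairs passed over 38 to 42 arrays, all positive, with a median r of 0.24. C1qb and C1qc gave r = 0.53 (permutation p = 0.0022, adjusted p = 0.011) and rho = 0.51 (permutation p = 0.0042, adjusted p = 0.019), with r = 0.48 without the 2 farthest arrays. C1qc and Lyz2 had the highest value, r = 0.75 (permutation p = 2e-05, adjusted p = 0.00072) and rho = 0.69 (adjusted permutation p = 0.00036), with r = 0.71 without the 2 farthest arrays. With zeros at 16 that pair gave r = -0.07 (adjusted permutation p = 0.87). C1qc also gave r = 0.68 with Cd14, 0.66 with C1qa and 0.47 with Tyrobp, and all 3 passed. The remaining pair of C1q chains, C1qa and C1qb, did not pass (r = 0.22, adjusted permutation p = 0.49). It gave r = -0.21 with zeros at 16 (adjusted permutation p = 0.57) and 0.34 with means removed within array set (adjusted permutation p = 0.17). With means removed within array set 9 pairs passed, C1qc with Lyz2 at r = 0.75 and C1qc with C1qa at r = 0.72 among them, while C1qb with C1qc gave r = 0.48 (adjusted permutation p = 0.073) and rho = 0.49 (adjusted permutation p = 0.037). Arg1 and Csf1r each passed with none of the other 8 genes in either form of the values. With zeros as missing the r of Arg1 lay between -0.22 (C1qb) and 0.32 (Csf1r). That of Csf1r lay between -0.22 (C1qb) and 0.39 (Lyz2). With means removed within array set Csf1r passed with Lyz2 (r = 0.59, adjusted permutation p = 0.011) and C1qc (r = 0.42, adjusted permutation p = 0.039), and Arg1 passed with none.

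**Figure D4:**
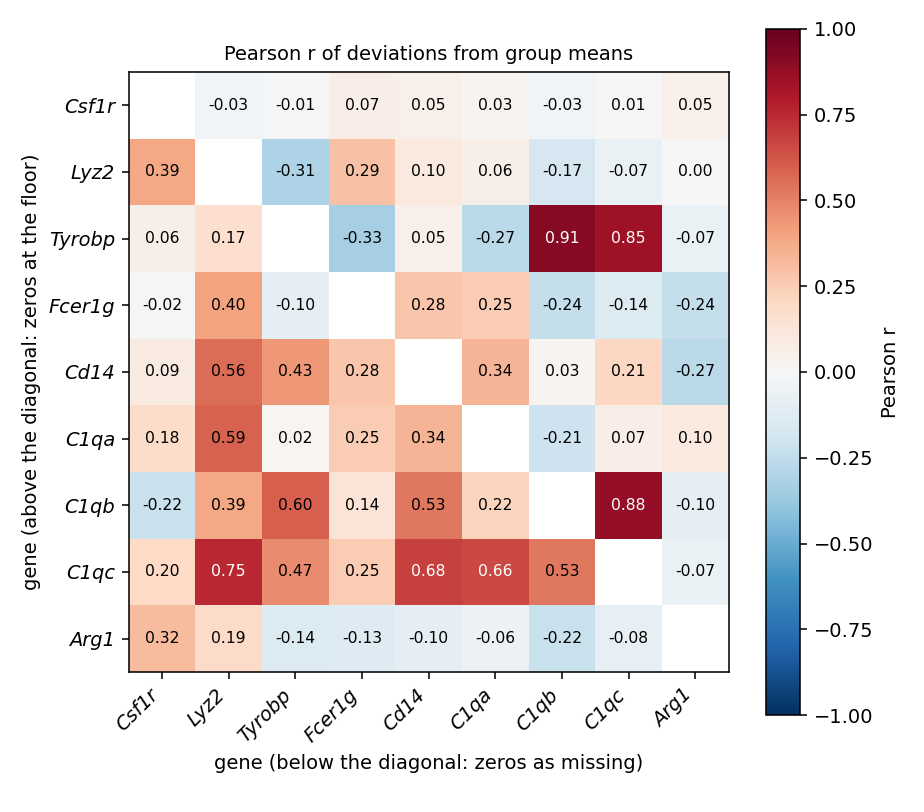
Pearson r between deviations from the group means for each pair of the 9 genes over the arrays of 12 h, 48 h and 15 d, with zeros at 16 above the diagonal and zeros as missing below it. Tyrobp, C1qb and C1qc reach 0.85 to 0.91 above the diagonal, and C1qc and Lyz2 reach 0.75 below it. The row and column of Arg1 stay between -0.27 and 0.32 and those of Csf1r between -0.22 and 0.39.

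Among all named features outside the list, those whose deviations were most like those of C1qb with zeros at 16 were led by Rhog (r = 0.96), Msl2 (0.93) and Mgp (0.91) over 42 arrays. All 10 leading genes were at 0 on the array where C1qb is at 0. With zeros as missing the leading genes were Wtap (r = 0.80), Dpysl3, Ttr and Notch2 (0.78 each), then Mrpl28 (0.77), Eppk1 and Actl6a (0.76 each). Fcna, the gene of ficolin A, a lectin of the complement system that mouse macrophages make, was the 8th (0.75 over 40 arrays). Timm44 and Dynlt3 followed (0.75 each). Array set was not removed from these values. These values are a description over arrays that share groups and sets.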

How the data were processed

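RNA of mouse ventral prostate was measured on 51 Affymetrix arrays. The values are linear probe set intensities that the authors deposited in 2 tables. How they were scaled is not stated in the labels. Array medians were 91.6 to 109.3 in the larger table and 98.1 to 110.4 in the other. The number of arrays limits the precision.

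Groups came from the labels. Probe sets with 1 gene symbol in the platform annotation were named. A floor of 16 was applied before taking log2. Features with a mean log2 below the 40th percentile were left out, and the brightest probe set stood for a gene, which left 9627 and 9345 features. A model with a mean per group was fitted in each table with limma 3.58.1 in R 4.3.3, with a trended variance and Benjamini-Hochberg adjustment over all features at 0.05. Checks on simulated data were run first.

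The members, lists and tests were chosen with earlier results of these data known. All members are named, other genes where they passed the test in a list, and the genes most like C1qb by Pearson r over at least 38 arrays. Alternatives were the filter, floor, normalization, array weights, array set, replicate block, samples fitted and leaving out each array. Treating zeros as missing was added after seeing the data. Correlations used 100000.0 permutations within groups, so that the smallest p was 1e-05.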

Additional observations from a re-analysis of the deposited data

Results flagged for a closer look

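In 20 of 126 groups of 4 to 10 arrays tested, 1 array stood apart from the others of its group by more than Dixon's 95% critical value, where chance flags about 1 in 20. In 8 of the 20 the array was listed at 0. The zeros were Arg1 in transgenic placebo replicate 4 of 48 h (0, next 417), Csf1r 1419872_at in transgenic placebo replicate 4 of 12 h (0, next 703), Csf1r 1423593_a_at in wild type replicate 3 of 48 h (0, next 48.4) and Lyz2 in wild type replicate 2 of 48 h (0, next 335.8). They also include Cd14 in RAD001 replicate 3 of 9 d (0, next 100.4) and, in RAD001 replicate 4 of 15 d, C1qb 1434366_x_at (0, next 105.8), C1qc (0, next 158.3) and Tyrobp (0, next 123.2).

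Cd14 was high in transgenic placebo replicate 2 of 12 h (140.2, next 120.9) and in RAD001 replicate 1 of 48 h (406.7, next 139.1). Fcer1g was high in RAD001 replicate 3 of 9 d (148.3, next 114.3). Csf1r 1419872_at was low in RAD001 replicate 5 of 48 h (506.3, next 616.9), and 1419873_s_at was low in transgenic placebo replicate 4 of 12 h (270.4, next 413.9), the array with the zero of 1419872_at. Csf1r 1423593_a_at was low in transgenic placebo replicate 1 of 12 h (48.5, next 60.2) and high in RAD001 replicate 1 of 12 h (48.1, next 43.8). Lyz2 was high in transgenic placebo replicate 8 of 15 d (616.6, next 355.9). C1qb 1434366_x_at was low in RAD001 replicate 2 of 48 h (128.2, next 176.7), and 1437726_x_at was high in RAD001 replicate 4 of 12 h (17.7, next 9.8) and wild type replicate 1 of 48 h (36.7, next 19.7). The test used values set to the floor of 16. All other arrays of that 12 h group were under 16 in 1437726_x_at, so any value above the floor would have been flagged. Groups of this set with every array at the floor could not be flagged, though they count among the 126. Tyrobp was high in RAD001 replicate 4 of 12 h (138.9, next 123.4).

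The genotype effect on Csf1r 1419873_s_at differed between 12 h, 48 h and 15 d by a test of the interaction (adjusted p = 0.029), and 21.3% of all probe sets passed that test.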

How the results depend on the processing

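Counts here are members called higher or lower. The share of all features called moved with the setting too. Averaged over times between genotypes it was 33.5% in the main fit, 40.5% with zeros as missing and 25.5% with no filter. At 48 h these shares were 26.6%, 32.6% and 19.9%. Shares under the other settings are not given here, so a changed count is not a result about the members apart from all features. Averaged over times 1 was higher between genotypes in every setting run, and 1 lower became 2 with no filter, a floor of 64, array weights, only the groups compared, the replicate block, array set as a block, zeros as missing (with or without that block), 12 h and 48 h alone, without set B and without the arrays with over 500 zeros. At 12 h 0 higher became 1 with a floor of 64, array weights, only the groups compared, the replicate block, zeros as missing and both exclusions of arrays, and so did RAD001 glands against wild type. At 12 h 1 lower became 2 with the 60th percentile filter, a floor of 64, only the groups compared and the array set block. At 48 h 0 lower became 1 with no filter, the 60th percentile filter, a floor of 64, array weights, the replicate block and the array set block, 2 with zeros as missing and without the arrays with many zeros, and 3 with only the groups compared and without set B. At 48 h 0 higher became 1 with a floor of 64, array weights, zeros as missing and without set B. At 15 d 1 lower became 0 with median scaling, only the groups compared, the replicate block, the array set block and without set B, and 0 higher became 1 with a floor of 64, zeros as missing and without set B. With RAD001 at 15 d 1 higher (C1qa) became 0 with array weights, only the groups compared, the replicate block and both exclusions. With RAD001 at 6 d and 9 d 1 lower (Arg1) became 0 with no filter, the replicate block, and 6 d or 9 d alone, and is 0 with the 60th percentile filter, under which Arg1 was not tested. RAD001 glands against wild type at 12 h had 1 lower, which became 0 with no filter, quantile normalization and median scaling and 2 with array weights and only the groups compared. At 48 h they had 0 lower, which became 1 with no filter, and 0 higher, which became 1 with only the groups compared and zeros as missing. Other counts of 0 became 1 lower with RAD001 at 48 h and at 15 d with zeros as missing, 1 changed in the RAD001 effect by time with zeros as missing and the array set block, and 1 higher in wild type glands at 48 h against 12 h with only the groups compared. Transgenic placebo glands at 15 d against earlier times had 0 calls, which became 2 higher with only the groups compared, 1 higher with zeros as missing, and 1 lower with zeros as missing and without set B. Of the pairs, 11 passed with zeros as missing and 9 within array set, against 4. Leaving out 1 array moved counts of 0 to at most 1 and counts of 1 to between 0 and 2. The replicate numbers were not taken to pair the arrays, since same-number correlations ran from -0.25 to 0.48. For RAD001 at 15 d their mean was 0.23, against -0.024 for other numbers. With the replicate block Arg1 at 6 d and 9 d gave -2.72 (adjusted p = 0.14), C1qa with RAD001 at 15 d 0.63 (0.393) and Fcer1g between genotypes at 15 d -0.44 (0.0593). Csf1r at 15 d against earlier placebo arrays was 0.04 and turned to -0.65, both with zeros as missing and without transgenic placebo replicate 4 of 12 h, the array at 0, and lay between -0.65 and 0.29 when 1 array was left out. For the other changed counts the cause was not tested. Zeros, 1 placebo array a day at 6 d and 9 d, and array set at 15 d limit these results.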
